A study of Homo sapiens with 23 samples.

Results

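The mitochondrial ribosomal protein genes were followed in 4 human multiple myeloma cell lines that carried a guide RNA, either to IRF4 or one called EV. They were taken as all genes of the deposited count table whose symbol is MRPL or MRPS followed by a number and at most a letter, with at least 10 counts in every library. All 78 symbols of that form met the minimum, out of 28395 genes in the table, and the lowest single count among them was 45, for MRPS24. Genes without a symbol of that form that also encode mitochondrial ribosomal proteins, such as DAP3, were kept as a separate list.

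The lines H929, MM1S, OPM2 and RPMI-8226 are established human multiple myeloma lines, a cancer of plasma cells. All cells of the study, also those with the EV guide, received doxycycline for 48 hours, which induced the guide, and the titles name the IRF4 guide 21B. Cas9, the nuclease that a guide RNA directs to its target, is named in the log2 RPKM column header of every library, with either guide. Each line with the IRF4 guide and each line with the EV guide had 3 libraries, except MM1S with the EV guide, which had 2 (replicates 2 and 3), so that 23 libraries formed 8 groups. Neither the meaning of EV nor whether the cells were pools or single clones was given in the labels. Nor do the labels tell if replicates came from separate cultures, so a p-value here measures only how far these samples spread, and that spread may be technical.

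Mitochondria hold their own ribosomes, which translate the few messenger RNAs of mitochondrial DNA into core subunits of the respiratory chain and ATP synthase. The proteins of these ribosomes are encoded in the nucleus, made in the cytosol and imported. About the catalytic and decoding centres they are homologs of bacterial ribosomal proteins, and the outer shell is largely made of proteins without a bacterial counterpart. Promoters of such nuclear genes often hold sites of NRF1, of ETS-family factors such as GABP, and of YY1, and MYC binds many of them. IRF4 is a transcription factor of plasma cells on which myeloma lines depend.

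Library totals ran from 6907390 to 28486960 counts. CPM are counts scaled to a common library total. IRF4 itself was lower with the IRF4 guide in every line, with a log2 fold change of -1.58 ± 0.18 (SE) for H929, -1.37 ± 0.20 for MM1S, -0.66 ± 0.18 for OPM2 and -1.10 ± 0.18 for RPMI-8226. All 7 plasma cell markers had counts in every library. Of 10 markers of other cells, CD3E reached 94.9 to 117 CPM of the library total with the IRF4 guide in H929, against 12.5 to 14 CPM with the EV guide. EPCAM had 77.4 to 95.0 CPM with the IRF4 guide in RPMI-8226, against 108 to 121 with the EV guide. The other 8 markers together reached 9.99 to 16.2 CPM with the IRF4 guide in H929, against 1.08 to 1.67 with the EV guide, and at most 9.47 in any other group. CD3D had no count in 19 of the 23 libraries. The part of these markers in the results on mitochondrial ribosomal proteins was not tested.

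The summed level of the 78 genes was lower with the IRF4 guide in H929, OPM2 and RPMI-8226, where the 2 groups did not overlap. Levels per library are CPM on library sizes scaled by trimmed mean of M-values (TMM). The sum averaged 3888 ± 123 CPM with the IRF4 guide in H929 and 5568 ± 403 CPM with the EV guide (SD, n = 3 each). In OPM2 it averaged 4423 ± 96.7 CPM with the IRF4 guide and 5673 ± 183 CPM with the EV guide, and in RPMI-8226 it averaged 4825 ± 347 CPM with the IRF4 guide and 6054 ± 277 CPM with the EV guide. These differences amounted to -30.2% in H929, -22.0% in OPM2 and -20.3% in RPMI-8226. In MM1S the sum was 4304 ± 320 CPM with the IRF4 guide (n = 3) and 4526 ± 52.8 CPM with the EV guide (n = 2), a difference of -4.90% that lay within the spread of the IRF4-guide libraries. The 3 MM1S libraries with the IRF4 guide ran from 3963 to 4598 CPM, and the 2 with the EV guide, at 4489 and 4563 CPM, lay inside that range. This overlap depended on the TMM scaling. As a share of the unscaled library total, the 78 genes had 0.414% to 0.460% with the IRF4 guide in MM1S. With the EV guide they had 0.470% and 0.472%, without overlap. In bulk RNA, fewer cells with high levels and lower levels in each cell cannot be told apart.

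**Figure D1:**
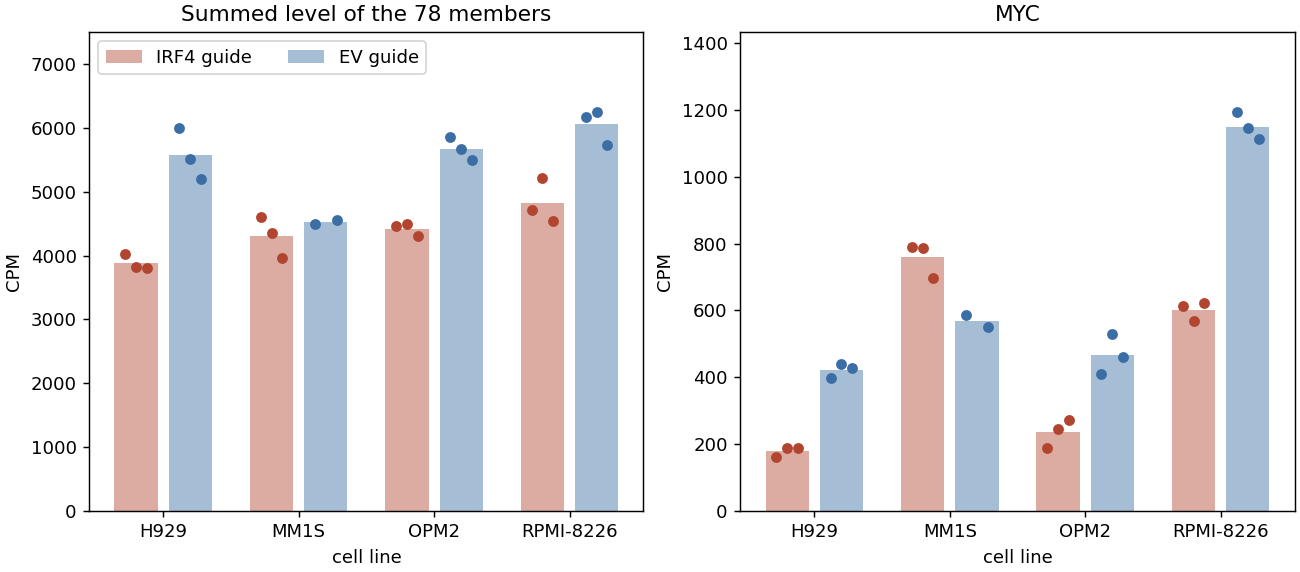
Summed CPM of the 78 mitochondrial ribosomal protein genes (left) and CPM of MYC (right) by cell line. Points are libraries and bars are group means, with the IRF4 guide in red left of the EV guide in blue. The summed level was 3888 against 5568 CPM in H929 and 4304 against 4526 CPM in MM1S, where MYC was 758 against 569 CPM.

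MYC, the transcription factor that binds many of these promoters, was likewise lower with the IRF4 guide in H929, OPM2 and RPMI-8226 and not in MM1S. Its level was 179 ± 14.4 CPM with the IRF4 guide and 421 ± 21.8 CPM with the EV guide in H929, and 236 ± 42.7 CPM with the IRF4 guide and 468 ± 60.1 CPM with the EV guide in OPM2. In RPMI-8226 it was 601 ± 29.0 CPM with the IRF4 guide and 1151 ± 41.0 CPM with the EV guide. In MM1S it was 758 ± 52.5 CPM with the IRF4 guide and 569 ± 24.8 CPM with the EV guide. By edgeR's quasi-likelihood test MYC fell in H929, OPM2 and RPMI-8226, with log2 fold changes of -1.24, -0.99 and -0.94, and rose in MM1S by 0.42 (adjusted p = 0.00418). The part of MYC in the results was not tested.

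Single genes were tested with edgeR's quasi-likelihood test in a model of the 8 groups over 16468 genes, with Benjamini-Hochberg adjustment within each contrast and a call at an adjusted p under 0.05. Over the average of the 4 lines, 66 of the 78 genes fell and 1 rose, where 57.7% of all tested genes were called, 25.1% lower and 32.6% higher. Their median log2 fold change was -0.33, beside 0.11 over all tested genes. In H929, 62 fell and 1 rose, where 58.9% of all genes were called, 26.1% lower and 32.9% higher, and the medians were -0.55 for the 78 genes and 0.10 for all. In OPM2, 53 fell and 2 rose, where 43.5% of all genes were called, 20.2% lower and 23.3% higher, with medians of -0.39 and 0.03. In RPMI-8226, 45 fell and none rose, where 33.9% of all genes were called, 14.7% lower and 19.2% higher, with medians of -0.29 and 0.04. In MM1S, 14 fell and 5 rose, where 34.6% of all genes were called, 15.2% lower and 19.4% higher, with medians of -0.06 and 0.07. These are 17.9% and 6.41% of the 78 genes, but the number that fell in MM1S was 23 when that line was fitted alone.

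Separation of the libraries gave a like picture. In H929 all IRF4-guide libraries lay below all EV-guide libraries for 64 of the 78 genes and above for 2, where the shares over all genes were 27.7% and 34.4%. The counts were 61 below and 4 above in OPM2 (23.9% and 28% of all genes), and 53 below and 1 above in RPMI-8226 (18.4% and 24.8%). In MM1S they were 24 below and 15 above (24% and 31.4%), with only 2 EV-guide libraries to separate from.

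**Figure D2:**
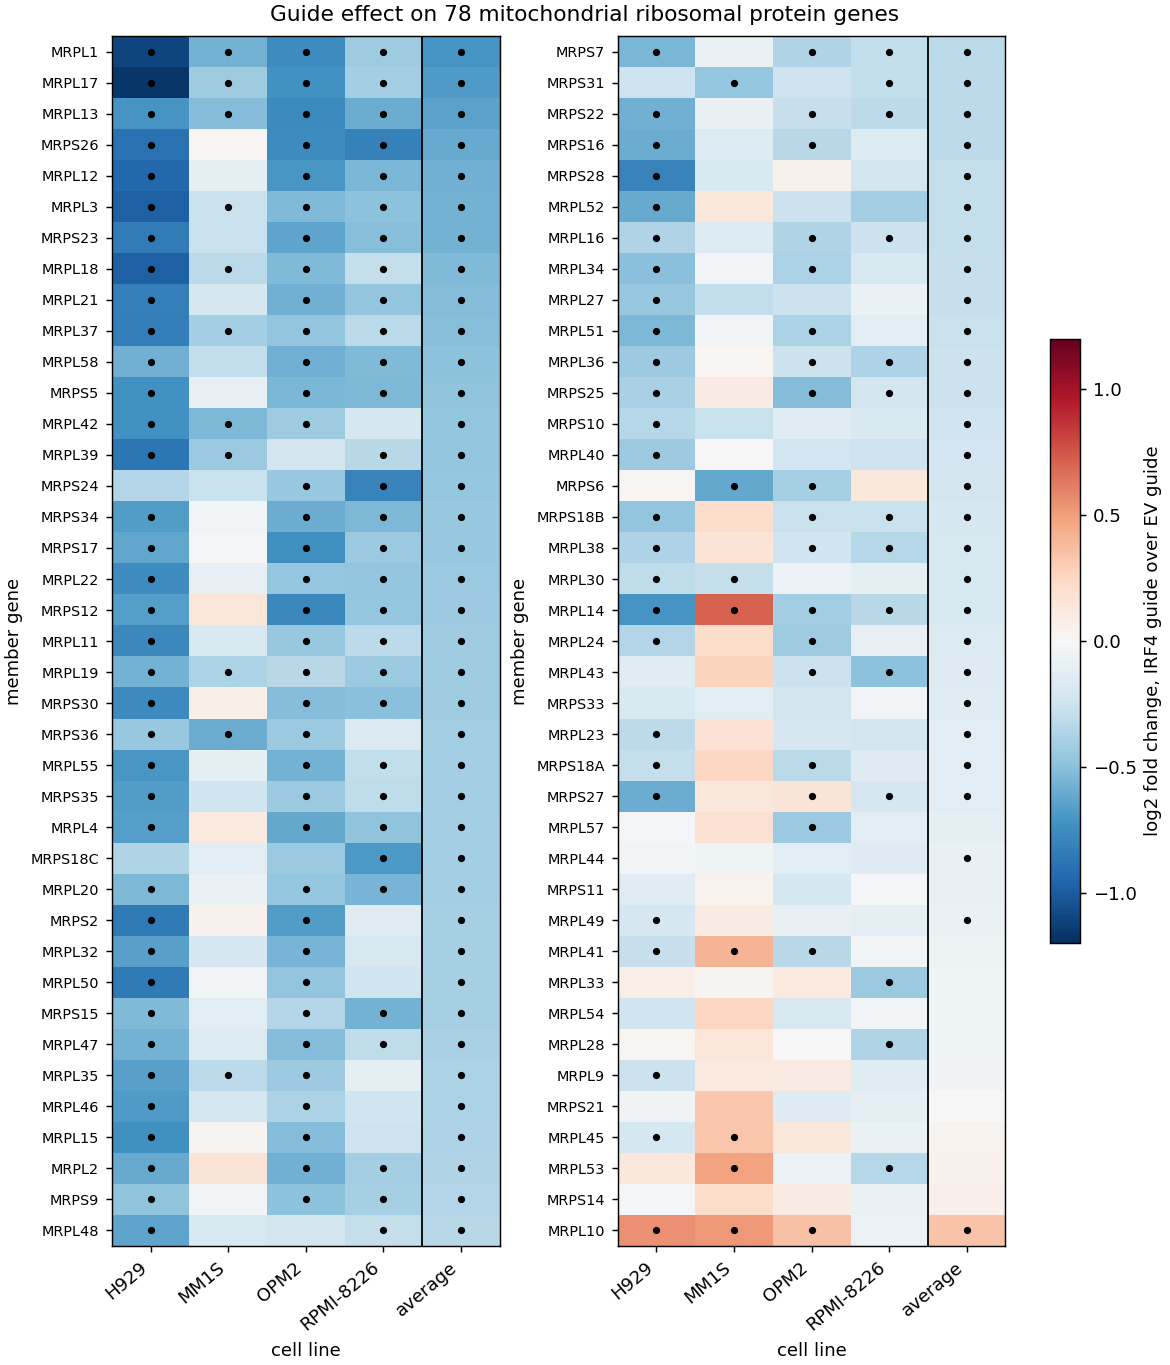
Log2 fold change of each of the 78 genes, IRF4 guide over EV guide, in each cell line and on average, sorted by the average from the top of the left panel to the bottom of the right panel. Blue is lower and red is higher with the IRF4 guide, and a black dot marks an adjusted p under 0.05. Dots on blue fill most of the H929, OPM2 and RPMI-8226 columns, against 14 in the MM1S column.

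Calls were compared over the lines. Called lower in all 4 lines were 7 genes, MRPL1, MRPL3, MRPL13, MRPL17, MRPL18, MRPL19 and MRPL37, where 3.83% of all tested genes were called lower in all 4. This count was 14 with each line fitted alone and 4 without MM1S EV-guide replicate 3. With a replicate block within each line the count was 20. Another 28, in the main fit, were called lower in H929, OPM2 and RPMI-8226 but not in MM1S, where 3.59% of all genes were. Being called in 1 line and not in another is no test of a difference, which is given below. The 7 genes called lower in no line were MRPL10, MRPL44, MRPL54, MRPS11, MRPS14, MRPS21 and MRPS33, where 10295 of the 16468 tested genes were called lower in none. H929 had the most negative fold change for 52 of the 78 genes, and MM1S the most positive for 57. The matching shares over all tested genes were not computed, and H929 also had the most calls over all genes, at 58.9%. Across the 78 genes the log2 fold changes of H929 and OPM2 had a Pearson r of 0.70, beside 0.55 over all tested genes, and those of MM1S and RPMI-8226 had an r of 0.16, beside 0.19. These points share the libraries of their line, and genes are not independent replicates.

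Promoter windows of 300 bases, from 250 before to 50 after a transcription start, were available for 70 of the 78 genes (86 windows, RefSeq, GRCh38.p14). They were searched on both strands for the cores of 4 factors known at promoters of nuclear mitochondrial genes. The ETS core CCGGAAG was present in 38.4% of the 86 windows, beside 15.2% of 18207 windows of tested genes and 10.3% of all 35116 windows. The YY1 core AAGATGG was present in 31.4%, beside 6.65% and 5.84%, and 17 windows held it after the start, where its letters can include a start codon. The NRF1 core GCATGCG was present in 8.14%, beside 5.37% and 3.91%, and the E-box CACGTG, the site of MYC, in 11.6%, beside 8.93% and 7.26%. The NRF1 core can overlap its own reverse complement, and such a pair is 1 stretch. A match is a description of the sequence and not a site shown to be bound. The windows shown are from genes whose values are given in full below or that had the largest fall in a line, and hold a match, in capitals, to the NRF1 core (MRPL17, at -80 and -42 from the start), the ETS core (MRPS26, at -37), the ETS core with the YY1 core (MRPS12, at -5 and -211), the YY1 core after the start (MRPS30 at 13, MRPS27 at 16) and the E-box (MRPS2, at -56).
MRPL17 (chr11:6683291-6683590, minus strand): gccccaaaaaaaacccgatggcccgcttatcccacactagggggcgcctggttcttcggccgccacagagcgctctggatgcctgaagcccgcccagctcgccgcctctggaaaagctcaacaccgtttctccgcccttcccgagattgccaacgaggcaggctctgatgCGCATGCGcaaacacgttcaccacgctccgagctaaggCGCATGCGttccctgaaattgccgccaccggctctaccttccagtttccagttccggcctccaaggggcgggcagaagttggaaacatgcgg
MRPS26 (chr20:3045802-3046101, plus strand): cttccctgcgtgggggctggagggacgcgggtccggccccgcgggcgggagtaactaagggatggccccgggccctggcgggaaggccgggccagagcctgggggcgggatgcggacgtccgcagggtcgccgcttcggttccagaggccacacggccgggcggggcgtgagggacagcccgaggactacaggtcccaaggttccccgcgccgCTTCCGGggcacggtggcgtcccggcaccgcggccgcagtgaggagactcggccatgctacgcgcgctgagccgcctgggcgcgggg
MRPS12 (chr19:38930694-38930993, plus strand): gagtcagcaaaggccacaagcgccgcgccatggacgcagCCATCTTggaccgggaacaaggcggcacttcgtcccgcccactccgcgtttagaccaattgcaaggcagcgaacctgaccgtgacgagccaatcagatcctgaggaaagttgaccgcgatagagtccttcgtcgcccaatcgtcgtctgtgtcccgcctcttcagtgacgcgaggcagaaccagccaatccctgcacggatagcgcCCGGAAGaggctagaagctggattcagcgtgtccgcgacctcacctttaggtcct
MRPS30 (chr5:44808697-44808996, plus strand): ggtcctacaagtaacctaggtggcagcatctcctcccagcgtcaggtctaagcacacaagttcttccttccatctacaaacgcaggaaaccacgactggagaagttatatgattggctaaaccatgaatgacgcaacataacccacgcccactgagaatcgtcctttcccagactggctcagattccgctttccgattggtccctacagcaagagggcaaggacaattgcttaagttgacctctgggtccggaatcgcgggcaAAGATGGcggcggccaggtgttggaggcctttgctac
MRPS27 (chr5:72320191-72320490, minus strand): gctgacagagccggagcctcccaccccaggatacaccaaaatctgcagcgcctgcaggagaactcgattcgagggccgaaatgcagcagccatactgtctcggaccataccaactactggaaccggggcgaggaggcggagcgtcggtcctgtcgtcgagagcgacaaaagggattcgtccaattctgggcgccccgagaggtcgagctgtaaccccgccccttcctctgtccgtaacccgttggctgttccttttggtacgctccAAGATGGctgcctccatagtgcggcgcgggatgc
MRPS2 (chr9:135499715-135500014, plus strand): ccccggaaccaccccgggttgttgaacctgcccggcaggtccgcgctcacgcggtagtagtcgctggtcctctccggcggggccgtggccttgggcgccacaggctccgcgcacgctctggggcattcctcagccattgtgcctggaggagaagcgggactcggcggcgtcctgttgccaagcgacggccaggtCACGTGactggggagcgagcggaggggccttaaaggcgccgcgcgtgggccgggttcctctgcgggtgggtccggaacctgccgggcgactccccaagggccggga

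Genes with and without each core were set side by side, with no test. On average over the lines, the median log2 fold change was -0.33 for 10 genes with an E-box and -0.32 for 60 without. It was -0.28 for 30 genes with the ETS core and -0.40 for 40 without, and -0.35 for 24 with the YY1 core and -0.31 for 46 without. For the NRF1 core it was -0.40 for 7 genes with it and -0.31 for 63 without. The windows of MRPL1 and MRPL12, both among the largest falls, held none of the 4 cores.

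Among the 29 genes for large subunit proteins with a bacterial homolog, 25 fell and 1 rose on average, with a median log2 fold change of -0.38. By line, 26 fell in H929, 22 in OPM2, 19 in RPMI-8226 and 8 in MM1S. Of all tested genes, 26.1%, 20.2%, 14.7% and 15.2% were called lower in these lines, and 25.1% on average. The 29 genes held the 3 largest falls of all 78 genes on average, MRPL1, MRPL17 and MRPL13, and the single rise, MRPL10.

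MRPL1 encodes the protein of the stalk beside which transfer RNA leaves the ribosome (chromosome 4, 77862830 to 77952785). It had 23, 22.6 and 24.4 CPM with the IRF4 guide in H929, against 55.7, 49.8 and 44.9 CPM with the EV guide, and 26.9, 24.5 and 19.3 CPM with the IRF4 guide in MM1S, against 36.7 and 34.6 CPM with the EV guide. It had 32.1, 35.2 and 28.4 CPM with the IRF4 guide in OPM2, against 57.6, 57.9 and 46.4 CPM with the EV guide, and 20.5, 23.2 and 19 CPM with the IRF4 guide in RPMI-8226, against 29.6, 30.0 and 23.5 CPM with the EV guide. All IRF4-guide libraries were the lower ones in every line, and in RPMI-8226 the highest IRF4-guide library, at 23.2 CPM, lay close below the lowest EV-guide library, at 23.5 CPM. The log2 fold changes were -1.10 ± 0.12 for H929, -0.57 ± 0.14 for MM1S, -0.75 ± 0.12 for OPM2 and -0.42 ± 0.12 for RPMI-8226 (edgeR, adjusted p = 4.35e-09, 0.00202, 4.41e-06 and 0.00743). Without RPMI-8226 EV-guide replicate 2 the adjusted p in RPMI-8226 was 0.0539. The average was -0.71 ± 0.06, the largest fall of the 78 genes.

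MRPL17 encodes a protein near the exit of the peptide tunnel (chromosome 11, 6680385 to 6683340). Its levels in H929 were 33.0, 26.9 and 35.1 CPM with the IRF4 guide, against 83.0, 68.0 and 64.5 CPM with the EV guide, and in MM1S 42.6, 35.9 and 33.0 CPM with the IRF4 guide, against 47.8 and 53.4 CPM with the EV guide. In OPM2 they were 45.7, 50.2 and 46.0 CPM with the IRF4 guide, against 78.4, 78.6 and 78.5 CPM with the EV guide, and in RPMI-8226 25.8, 30.9 and 26.4 CPM with the IRF4 guide, against 36.4, 38.8 and 35 CPM with the EV guide. No line had an overlap between guides. Its log2 fold change of -1.17 ± 0.11 in H929 was the largest fall of any of the 78 genes in a single line, and it was -0.43 ± 0.12 for MM1S, -0.73 ± 0.10 for OPM2 and -0.41 ± 0.11 for RPMI-8226. The MM1S call (adjusted p = 0.00736) was lost without MM1S EV-guide replicate 3, at -0.34 and an adjusted p of 0.119.

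MRPL13 encodes a large subunit protein of the universally conserved core (chromosome 8, 120395437 to 120445150). In H929 it had 36.4, 33.3 and 33.7 CPM with the IRF4 guide, against 64.3, 51.3 and 52.7 CPM with the EV guide, and in MM1S 36.7, 35.4 and 34.4 CPM with the IRF4 guide, against 47.3 and 54.9 CPM with the EV guide. In OPM2 it had 27.4, 28.2 and 29.3 CPM with the IRF4 guide, against 50.03, 47.8 and 46.4 CPM with the EV guide, and in RPMI-8226 47.4, 46.6 and 48.2 CPM with the IRF4 guide, against 74.9, 75.6 and 63.6 CPM with the EV guide. The IRF4-guide libraries lay closely together and below the others in each line. Its fall was of like size in the 4 lines, with log2 fold changes of -0.70 ± 0.09, -0.52 ± 0.11, -0.77 ± 0.09 and -0.60 ± 0.09 in the order H929, MM1S, OPM2 and RPMI-8226. The test of a difference between lines gave an adjusted p of 0.398, which does not show that the effects were equal. It fell by 0.65 ± 0.05 on average.

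**Figure D3:**
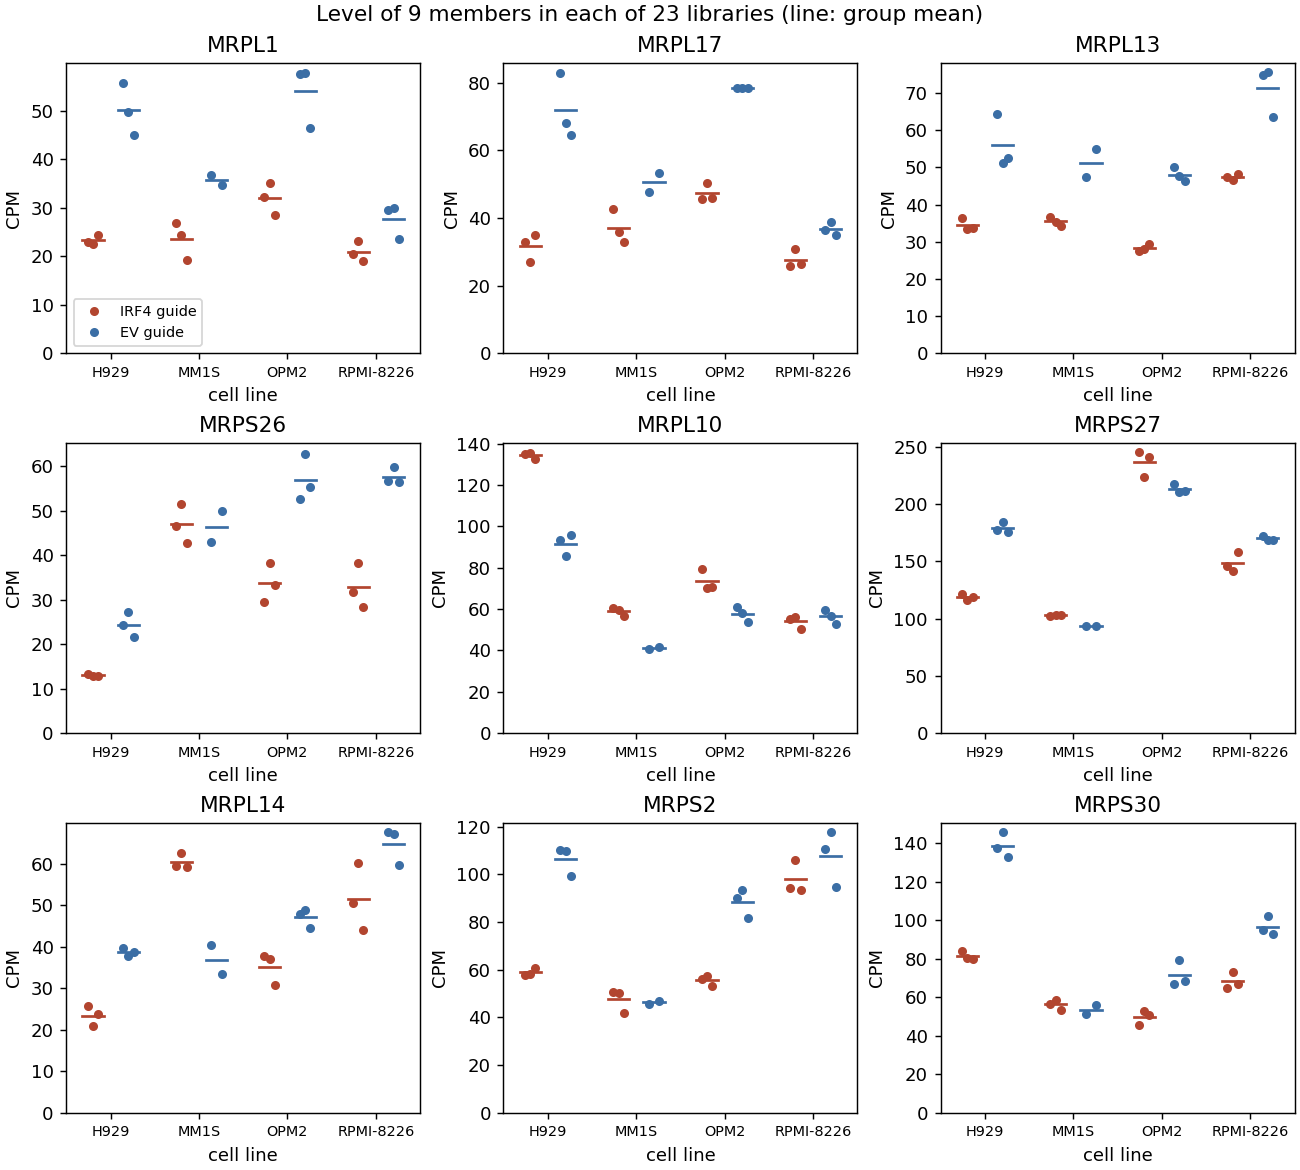
CPM of 9 genes in each of the 23 libraries, by cell line, with the IRF4 guide in red left of the EV guide in blue and a line at each group mean. MRPL1, MRPL17 and MRPL13 were lower with the IRF4 guide in all lines, MRPL10 was higher in H929, MM1S and OPM2, and MRPL14 was lower in 3 lines and higher in MM1S.

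MRPL12, which forms the flexible stalk that recruits translation factors, fell by 0.58 ± 0.05 on average. It averaged 96.0 ± 6.40 CPM with the IRF4 guide in H929 and 184 ± 20.5 CPM with the EV guide, and 133 ± 12.5 CPM with the IRF4 guide in MM1S (n = 3) and 144 ± 2.81 CPM with the EV guide (n = 2). In MM1S the difference was not called (log2 fold change -0.11 ± 0.11), and its effect differed between lines (adjusted p = 0.000351). MRPL3, MRPL18 and MRPL21 fell by 0.57 ± 0.05, 0.53 ± 0.05 and 0.52 ± 0.06 on average. MRPL18, a core large subunit protein, had in H929 20.3 ± 0.389 CPM with the IRF4 guide and 40.2 ± 4.07 CPM with the EV guide. In MM1S, MRPL3 and MRPL18 were called at -0.27 and -0.32, but each call was lost without any of 3 MM1S libraries: for MRPL3 IRF4-guide replicate 3 and both EV-guide replicates, and for MRPL18 IRF4-guide replicates 1 and 3 and EV-guide replicate 3. MRPL21 was not called there at -0.21 ± 0.15 (adjusted p = 0.274). The MRPL18 call in RPMI-8226 was lost without IRF4-guide replicate 1 (adjusted p = 0.0993) or EV-guide replicate 2 (0.0532) of that line.

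MRPL10 encodes the base on which the stalk of MRPL12 copies is mounted (chromosome 17, 47823272 to 47831541), and it rose. In H929 it had 135, 136 and 133 CPM with the IRF4 guide, against 93.2, 85.6 and 95.9 CPM with the EV guide, and in MM1S 60.5, 59.5 and 56.5 CPM with the IRF4 guide, against 40.5 and 41.7 CPM with the EV guide. In OPM2 it had 79.2, 70.3 and 70.6 CPM with the IRF4 guide, against 61.1, 58.0 and 53.5 CPM with the EV guide, and in RPMI-8226 55.3, 56.4 and 50.4 CPM with the IRF4 guide, against 59.8, 56.7 and 52.9 CPM with the EV guide. The guides did not overlap in H929, MM1S and OPM2, and overlapped in RPMI-8226. The log2 fold changes were 0.55 ± 0.08, 0.52 ± 0.09 and 0.35 ± 0.08 in H929, MM1S and OPM2, and -0.07 ± 0.08 in RPMI-8226. RPMI-8226 differed from the mean of the other 3 lines by -0.54 ± 0.09 (edgeR, adjusted p = 3.11e-05). On average it rose by 0.34 ± 0.04 (adjusted p = 1.78e-08), also with relative log expression scaling, with DESeq2 and on the deposited log2 RPKM values. MRPL10 and MRPL12, whose proteins bind each other in the ribosome, thus had average log2 fold changes of 0.34 and -0.58.

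MRPL14, at the face between the subunits (chromosome 6, 44113451 to 44127452), changed in opposite directions. In H929 it had 25.7, 20.9 and 23.7 CPM with the IRF4 guide, against 39.6, 37.8 and 38.8 CPM with the EV guide, and in OPM2 37.8, 37.1 and 30.8 CPM with the IRF4 guide, against 47.9, 49.0 and 44.4 CPM with the EV guide. In RPMI-8226 it had 50.5, 60.3 and 44.0 CPM with the IRF4 guide, against 67.6, 67.3 and 59.7 CPM with the EV guide, and in MM1S 59.6, 62.6 and 59.3 CPM with the IRF4 guide, against 40.5 and 33.4 CPM with the EV guide. It was low with the IRF4 guide in H929 and OPM2 and high in MM1S without overlap, and in RPMI-8226 1 IRF4-guide library reached above the lowest EV-guide library. The log2 fold changes were -0.71 ± 0.11, -0.42 ± 0.10 and -0.33 ± 0.10 in H929, OPM2 and RPMI-8226, and 0.71 ± 0.12 in MM1S (edgeR, adjusted p = 3.68e-05). MM1S differed from the mean of the other lines by 1.197 ± 0.14 (adjusted p = 2.74e-07), the largest difference of the 78 genes in that contrast. The RPMI-8226 call (adjusted p = 0.0113) was lost without IRF4-guide replicate 3 (0.0834), EV-guide replicate 1 (0.0522) or EV-guide replicate 2 (0.0530). MRPL14 overlaps TMEM63B in the RefSeq annotation, and no source used here gives the strand setting of the counting. TMEM63B averaged 25.5 CPM over all libraries, beside 45.1 CPM for MRPL14. Its log2 fold change was 1.66 in MM1S and 0.71, 0.48 and 0.43 in H929, OPM2 and RPMI-8226. Whether reads of one gene were counted for the other was not tested.

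A few other genes of this group were named for their level or their difference between lines. MRPL22, at the tunnel wall, fell by 0.45 ± 0.07 on average. MRPL28 was near 0 in H929 (log2 fold change 0.02 ± 0.08) and OPM2 (0.01 ± 0.08) and fell in RPMI-8226 by 0.36 ± 0.08, and RPMI-8226 differed from the mean of the other lines by -0.42 ± 0.09 (adjusted p = 0.000961). MRPL47 fell by 0.39 ± 0.05 on average, and its neighbour ACTL6A, which overlaps it, had a log2 fold change of -0.64 on average.

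Among the 22 other large subunit genes, whose proteins have no bacterial counterpart in that subunit, 17 fell and none rose on average, with a median log2 fold change of -0.25. By line, 17 fell in H929, 13 in OPM2, 9 in RPMI-8226 and 3 in MM1S, and 3 rose in MM1S. The MM1S shares were 13.6% lower and 13.6% higher, under the 15.2% and 19.4% of all tested genes. MRPL37 fell in all 4 lines, by 0.83 ± 0.08, 0.41 ± 0.09, 0.47 ± 0.08 and 0.32 ± 0.08 in the order H929, MM1S, OPM2 and RPMI-8226. It overlaps SSBP3, which rose by 0.41 on average.

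MRPS30 bears a small subunit name, but its protein sits in the large subunit (chromosome 5, 44808947 to 44815514). It had 84.2, 80.4 and 79.9 CPM with the IRF4 guide in H929, against 137, 146 and 133 CPM with the EV guide, and 45.4, 52.8 and 50.7 CPM with the IRF4 guide in OPM2, against 66.7, 79.5 and 68.3 CPM with the EV guide. It had 64.6, 73.3 and 66.9 CPM with the IRF4 guide in RPMI-8226, against 94.8, 102 and 92.9 CPM with the EV guide, and 56.7, 58.7 and 53.3 CPM with the IRF4 guide in MM1S, against 51.1 and 56.1 CPM with the EV guide. The guides were apart in H929, OPM2 and RPMI-8226 and overlapped in MM1S. It fell by 0.76 ± 0.08, 0.52 ± 0.08 and 0.50 ± 0.08 in H929, OPM2 and RPMI-8226, and was at 0.07 ± 0.10 in MM1S (adjusted p = 0.615). MM1S differed from the mean of the other lines by 0.67 ± 0.11 (edgeR, adjusted p = 3.56e-05).

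The 3 rises in MM1S were in MRPL53, MRPL41 and MRPL45. MRPL53 had a log2 fold change of 0.48 ± 0.13 in MM1S (adjusted p = 0.00515), and it fell in RPMI-8226 by 0.34 ± 0.11 (adjusted p = 0.0136). MRPL45, at the tunnel exit where the ribosome meets the inner membrane, was 47.8 ± 4.11 CPM with the IRF4 guide in MM1S (n = 3) and 37.9 ± 0.84 CPM with the EV guide (n = 2), a log2 fold change of 0.33 ± 0.10 (adjusted p = 0.00962). Both rises were lost without MM1S EV-guide replicate 2, with adjusted p-values of 0.104 for MRPL53 and 0.0943 for MRPL45. Without that library, 2 of the 78 genes rose in MM1S in place of 5. Without MM1S IRF4-guide replicate 3, 8 rose. MRPL41 rose by 0.41 ± 0.14 in MM1S (adjusted p = 0.0205) and fell in H929 by 0.27 ± 0.11 (adjusted p = 0.04) and in OPM2 by 0.33 ± 0.12 (adjusted p = 0.0295). MRPL45 fell in H929 by 0.21 ± 0.09 (adjusted p = 0.0378), a call lost without any of 5 of the H929 libraries (all but IRF4-guide replicate 3) and with relative log expression scaling, DESeq2 or another filter. The fall of MRPL53 in RPMI-8226 was lost without EV-guide replicate 1 (adjusted p = 0.0711). The MM1S rise of MRPL45 was also lost with no filter on low counts (adjusted p = 0.0558).

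MRPL44, an RNase III-like protein, and MRPL57 were close to the call limit on average. MRPL44 had -0.09 ± 0.04 (adjusted p = 0.0464), a call lost with the within-line replicate block (adjusted p = 0.0512). The call was also lost with relative log expression scaling (adjusted p = 0.0595) and with no filter on low counts (0.2266). A filter of 10 counts in every library lost it too (0.2485), as did most fits that left out a single library. MRPL57 had -0.11 ± 0.05 (adjusted p = 0.0505) and fell in OPM2 alone among the lines, by 0.45 ± 0.08, where OPM2 differed from the mean of the other lines by -0.46 ± 0.10 (adjusted p = 0.00193). MRPL51 fell by 0.27 ± 0.06 on average.

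Among the 17 small subunit genes with a bacterial homolog, 14 fell and none rose on average, with a median log2 fold change of -0.32. By line, 11 fell in H929, 11 in OPM2, 9 in RPMI-8226 and 1 in MM1S, where the share of 5.88% was under the 15.2% of all tested genes. The single fall in MM1S was MRPS6, which was at 0.02 ± 0.11 in H929 and 0.12 ± 0.11 in RPMI-8226, and fell by 0.62 ± 0.13 in MM1S and 0.40 ± 0.12 in OPM2. The OPM2 call (adjusted p = 0.00598) was lost without OPM2 EV-guide replicate 3, at -0.32 and an adjusted p of 0.0519. Of the 78 genes, MRPS6 alone was called lower in MM1S than in the mean of the other lines, a call lost without MM1S EV-guide replicate 2. MRPS6 overlaps SLC5A3, whose log2 fold changes were 0.05 for H929, -0.93 for MM1S, -0.45 for OPM2 and 0.33 for RPMI-8226. Over all libraries SLC5A3 averaged 40.5 CPM beside 25.05 CPM for MRPS6, and whether reads were shared between them was not tested.

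**Figure D4:**
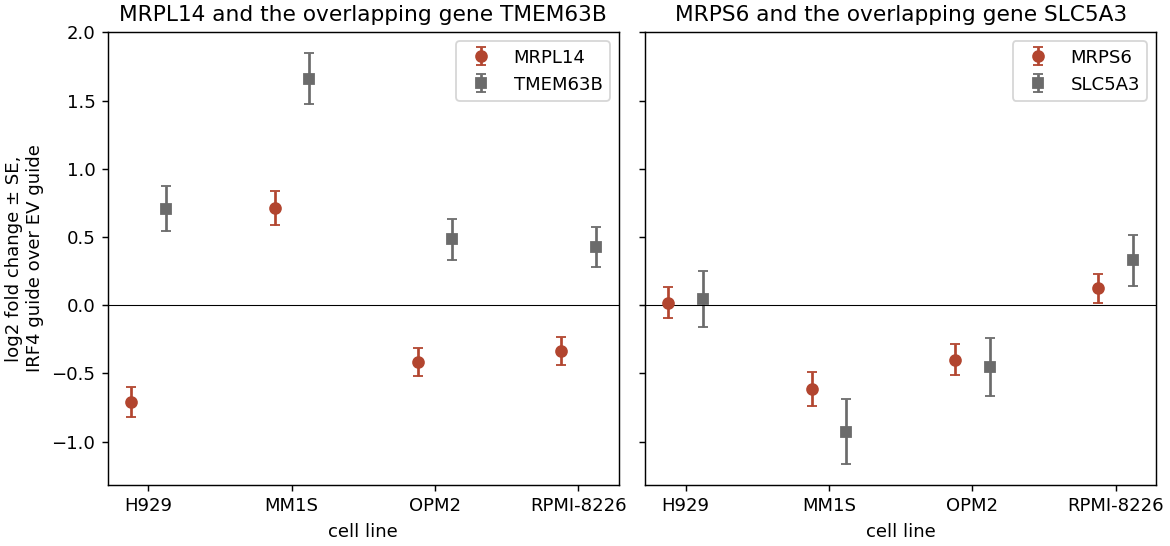
Log2 fold change with SE, IRF4 guide over EV guide, of MRPL14 beside the overlapping TMEM63B (left) and of MRPS6 beside the overlapping SLC5A3 (right), by cell line. MRPL14 and TMEM63B both peaked in MM1S, at 0.71 and 1.66, but had opposite signs in the other lines. MRPS6 and SLC5A3 had the same sign in all 4 lines, but in H929 both lay less than their SE from 0. SLC5A3 was called in MM1S alone.

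MRPS2, a small subunit protein between head and body (chromosome 9, 135499965 to 135504673), fell in H929 and OPM2 alone. It had 57.9, 58.2 and 60.6 CPM with the IRF4 guide in H929, against 110, 110 and 99.2 CPM with the EV guide, and 56.2, 57.3 and 53.3 CPM with the IRF4 guide in OPM2, against 90.3, 93.6 and 81.7 CPM with the EV guide. It had 94.4, 106 and 93.6 CPM with the IRF4 guide in RPMI-8226, against 111, 118 and 94.6 CPM with the EV guide, and 50.7, 50.2 and 41.7 CPM with the IRF4 guide in MM1S, against 45.8 and 46.9 CPM with the EV guide. H929 and OPM2 had a wide gap between guides, whereas RPMI-8226 and MM1S overlapped. The log2 fold changes were -0.85 ± 0.09 for H929, 0.05 ± 0.10 for MM1S, -0.67 ± 0.09 for OPM2 and -0.14 ± 0.08 for RPMI-8226, and they differed between lines (edgeR F test, adjusted p = 1.87e-06).

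MRPS12, which sits at the decoding centre, had the largest fall of the 78 genes in OPM2, 71.0 ± 6.56 CPM with the IRF4 guide and 122 ± 9.04 CPM with the EV guide (log2 fold change -0.78 ± 0.10). It fell by 0.66 ± 0.10 in H929 and 0.47 ± 0.10 in RPMI-8226. In MM1S it was 79.5 ± 5.02 CPM with the IRF4 guide (n = 3) and 72.1 ± 0.161 CPM with the EV guide (n = 2), a log2 fold change of 0.15 ± 0.11 that was not called. MM1S differed from the mean of the other lines by 0.78 ± 0.13 (adjusted p = 4.76e-05) and OPM2 by -0.45 ± 0.11 (adjusted p = 0.00713).

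A trio of paralogs shares the MRPS18 name, and each of their proteins has a place of its own in the mitochondrial ribosome. MRPS18B fell by 0.20 ± 0.04 on average, MRPS18C by 0.41 ± 0.11 and MRPS18A, whose protein is in the large subunit, by 0.13 ± 0.05. MRPS18B had 80.8 ± 5.34 CPM with the IRF4 guide in H929 and 112 ± 5.57 CPM with the EV guide, and 71.0 ± 3.05 CPM with the IRF4 guide in MM1S (n = 3) and 61.4 ± 1.43 CPM with the EV guide (n = 2). Its fold change in MM1S, 0.21 ± 0.09, missed the threshold (adjusted p = 0.0524), and the lines differed (adjusted p = 9.18e-05). MRPS18C fell in RPMI-8226, at 10.3 ± 2.09 CPM with the IRF4 guide and 16.4 ± 1.89 CPM with the EV guide (log2 fold change -0.69 ± 0.20, adjusted p = 0.0105). That call was lost without IRF4-guide replicate 3 (adjusted p = 0.0669) or EV-guide replicate 2 (0.0543) of RPMI-8226. With the within-line replicate block MRPS18C also fell in H929, at -0.37, and in OPM2, at -0.44. MRPS18A fell on average with an adjusted p of 0.0285, and the call was lost when any of 6 single libraries was left out: H929 EV-guide replicate 1, MM1S IRF4-guide replicate 3 or EV-guide replicate 3, OPM2 EV-guide replicate 3, or RPMI-8226 IRF4-guide replicate 3 or EV-guide replicate 1. The MRPS18A call was also lost with no filter on low counts (adjusted p = 0.0814) and with a filter of 10 counts in every library (0.109). MRPS24, the least counted of the 78 genes, was 5.14 ± 1.22 CPM with the IRF4 guide in RPMI-8226 and 9.27 ± 2.52 CPM with the EV guide, and fell there by 0.80 ± 0.18.

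All 9 of the other small subunit genes, whose proteins have no bacterial counterpart, fell on average, with a median log2 fold change of -0.32. By line, 7 fell in H929, 6 in OPM2, 8 in RPMI-8226 and 1, MRPS31, in MM1S, and 1, MRPS27, rose in OPM2. The share that fell in MM1S was 11.1%, beside 15.2% of all tested genes. The MRPS31 call in MM1S (adjusted p = 0.0119) was lost without MM1S IRF4-guide replicate 1 (0.0603) or EV-guide replicate 2 (0.153). MRPS23 fell by 0.56 ± 0.05 on average. In MM1S its fold change of -0.27 ± 0.11 was not called (adjusted p = 0.0709).

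MRPS26 (chromosome 20, 3046052 to 3048250) fell in every line but MM1S. It had 13.3, 12.8 and 12.8 CPM with the IRF4 guide in H929, against 24.3, 27.3 and 21.5 CPM with the EV guide, and 29.5, 38.3 and 33.3 CPM with the IRF4 guide in OPM2, against 52.6, 62.7 and 55.3 CPM with the EV guide. It had 31.8, 38.3 and 28.2 CPM with the IRF4 guide in RPMI-8226, against 56.6, 59.8 and 56.5 CPM with the EV guide, and 46.6, 51.5 and 42.8 CPM with the IRF4 guide in MM1S, against 42.9 and 49.9 CPM with the EV guide. The gap between guides was wide in 3 lines, and in MM1S the EV-guide libraries lay among the others. Its log2 fold changes were -0.89 ± 0.12 for H929, 0.02 ± 0.13 for MM1S, -0.75 ± 0.11 for OPM2 and -0.81 ± 0.11 for RPMI-8226, the last being the largest fall of the 78 genes in that line. The effect differed between lines (edgeR F test, adjusted p = 0.000229).

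MRPS27, a pentatricopeptide repeat protein that binds RNA (chromosome 5, 72219403 to 72320240), had the smallest p-value of the 78 genes for a difference between lines (edgeR F test, adjusted p = 9.46e-08). It had 122, 116 and 119 CPM with the IRF4 guide in H929, against 178, 185 and 176 CPM with the EV guide, and 146, 141 and 158 CPM with the IRF4 guide in RPMI-8226, against 172, 169 and 169 CPM with the EV guide. It had 246, 224 and 242 CPM with the IRF4 guide in OPM2, against 217, 210 and 212 CPM with the EV guide, and 102, 103 and 103 CPM with the IRF4 guide in MM1S, against 93.9 and 93.2 CPM with the EV guide. The IRF4-guide libraries were the lower ones in H929 and RPMI-8226 and the higher ones in OPM2 and MM1S, with no overlap in any line. The log2 fold changes were -0.59 ± 0.06 in H929, -0.20 ± 0.06 in RPMI-8226, 0.15 ± 0.06 in OPM2 and 0.14 ± 0.07 in MM1S. The OPM2 rise had an adjusted p of 0.043 and was lost when OPM2 was fitted alone (0.0626) and in 10 of the fits that left out 1 library, of any line but RPMI-8226, and the MM1S value was not called (0.156). The RPMI-8226 fall (adjusted p = 0.014) was lost without IRF4-guide replicate 1 (0.0524) or 2 (0.0605) of that line. With no filter on low counts both calls were lost, with adjusted p-values of 0.107 in OPM2 and 0.0688 in RPMI-8226. H929 differed from the mean of the other lines by -0.62 ± 0.07 and OPM2 by 0.37 ± 0.07 (adjusted p = 1.01e-07 and 0.00059).

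MRPS36 was counted apart, because its protein is known as a subunit of the 2-oxoglutarate dehydrogenase complex rather than of the ribosome. It fell by 0.42 ± 0.07 on average. It had 14.9 ± 1.22 CPM with the IRF4 guide in MM1S (n = 3) and 22.7 ± 0.77 CPM with the EV guide (n = 2), a log2 fold change of -0.59 ± 0.16, and in RPMI-8226 it was not called at -0.18 ± 0.13. The H929 call was lost without EV-guide replicate 1 (adjusted p = 0.0514).

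**Figure D5:**
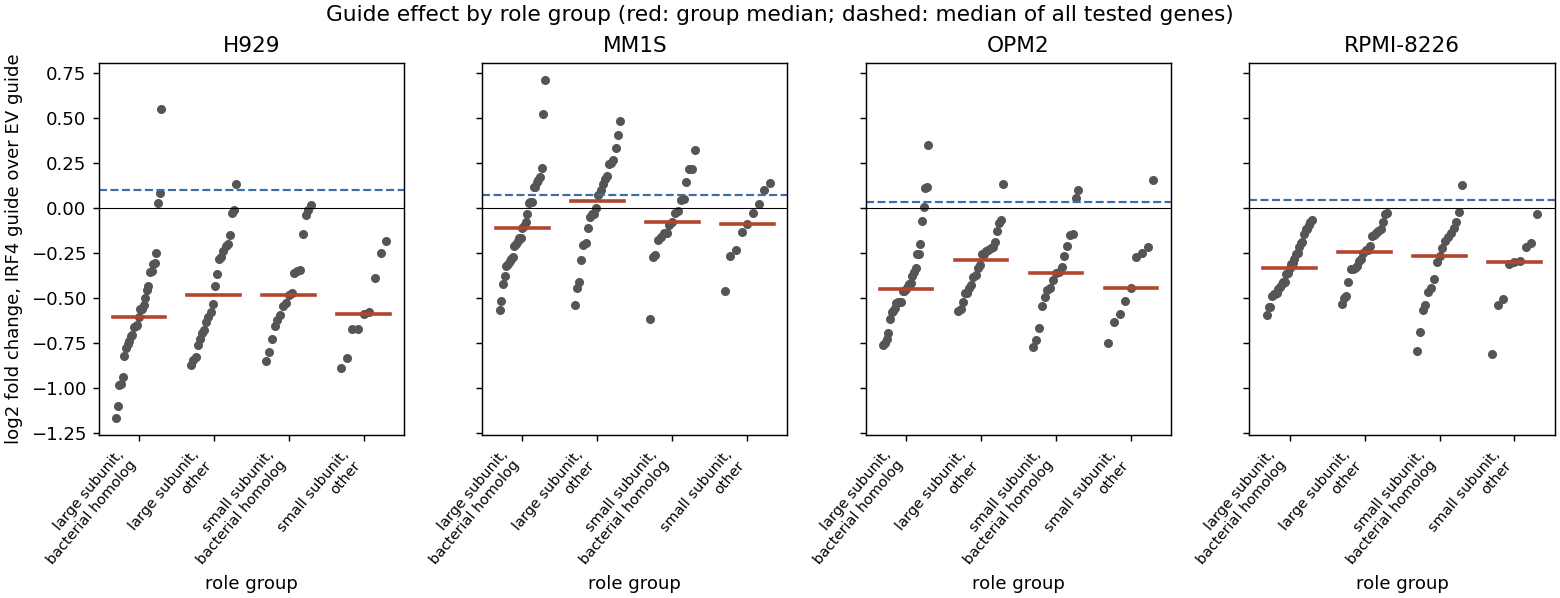
Log2 fold change, IRF4 guide over EV guide, of 77 genes in 4 role groups, in each cell line, with MRPS36 left out. Points are genes sorted within a group, red bars are group medians, and the dashed line is the median of all tested genes. Every group median lies below the dashed line in every line, and in MM1S the medians lie between -0.11 and 0.04.

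The difference between lines was tested for each gene. The effect differed for 50 of the 78 genes (edgeR F test with 3 degrees of freedom, adjusted p under 0.05), where 48% of all tested genes differed. Against the mean of the other 3 lines, 34 genes were higher and 1 was lower in MM1S, where 20.1% of all genes were called, 10.3% higher and 9.83% lower, with a median difference of 0.34 on the log2 scale beside 0.02 over all genes. In H929, 35 were lower and 1, MRPL10, was higher, where 30.2% of all genes were called, 16.8% lower and 13.4% higher, with a median of -0.29 beside -0.02. OPM2 and RPMI-8226 stood closer to the others. In OPM2, 5 were lower and 2 higher (12.4% of all genes were called, 6.01% lower and 6.39% higher), and with the within-line replicate block 8 and 4 were. In RPMI-8226, 4 were lower and 9 higher (25% of all genes were called, 12.3% lower and 12.6% higher). These 4 contrasts share all libraries. Without MM1S EV-guide replicate 2 the MM1S count of higher genes was 19, and without H929 EV-guide replicate 1 the H929 count of lower genes was 19. Without RPMI-8226 EV-guide replicate 3 the RPMI-8226 count of higher genes was 2, and without its IRF4-guide replicate 2 the count of lower genes was 11.

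Levels also differed between the lines with the EV guide. For 72 of the 78 genes the EV-guide libraries differed between lines (edgeR F test), a share of 92.3% that was near the 93.1% of all tested genes. MM1S had the lowest mean CPM for 40 genes and the highest for 5, and RPMI-8226 the highest for 30. With the IRF4 guide, MM1S had the lowest mean for 16 genes and H929 for 28. Shares over all tested genes were not computed for these counts, so whether they are particular to the 78 genes is not known. The smallest p-values with the EV guide were for MRPL18, MRPS18B, MRPL44, MRPL47 and MRPS30. MRPL18 had 40.2 ± 4.07 CPM for H929, 46.0 ± 4.97 for MM1S, 72.9 ± 2.94 for OPM2 and 122 ± 2.11 for RPMI-8226, whereas MRPL44 had 64.0 ± 2.86, 54.1 ± 4.81, 60.2 ± 2.26 and 27.8 ± 0.46 CPM in the same lines. So the line with the most MRPL18 had the least MRPL44.

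Between genes, levels were compared per length, on the deposited log2 RPKM values. The geometric mean RPKM over the 4 EV groups spanned 39.9-fold, from 5.68 for MRPS25 to 227 for MRPS34, with a median of 38.4. Next to MRPS34 came MRPL12 at 174, MRPL3 at 110, MRPL51 at 105 and MRPL4 at 81.1 RPKM. Above MRPS25 came MRPS31 at 7.89, MRPL22 at 9.67, MRPS24 at 11.9 and MRPL57 at 12.5 RPKM. The order of neighbours varied with the line: log2 RPKM with the EV guide was 6.70 ± 0.15 for MRPL3 and 6.01 ± 0.32 for MRPL51 in H929, and 6.52 ± 0.10 for MRPL3 and 7.32 ± 0.22 for MRPL51 in OPM2. MRPS34 overlaps EME2, which was counted at 3.86 CPM beside 210 CPM for MRPS34. Across the 78 genes the level and the average log2 fold change had a Pearson r of -0.14, as a description of genes measured in the same libraries. MRPS34 fell by 0.46 ± 0.05 and MRPL4 by 0.41 ± 0.06 on average, and at the low end MRPS25 fell by 0.26 ± 0.04 and MRPS31 by 0.32 ± 0.06.

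Genes that work with the mitochondrial ribosome were counted the same way. The counts of each list stand beside 25.1% of all tested genes called lower and 32.6% called higher on average. All 5 other ribosomal protein genes without an MRP symbol fell on average, among them PTCD3 by 0.40 ± 0.04, GADD45GIP1 by 0.48 ± 0.06 and DAP3, a GTP-binding small subunit protein, by 0.24 ± 0.04. None of the 5 was called in MM1S, where 34.6% of all tested genes were called. In OPM2 5 fell, in H929 4 and in RPMI-8226 3, where 20.2%, 26.1% and 14.7% of all genes were called lower. Of 12 mitochondrial translation factors 10 fell and none rose, among them the elongation factors GFM1 by 0.47 ± 0.05 and TSFM by 0.32 ± 0.04. GFM1 fell in all 4 lines, by 0.54 for H929, 0.54 for MM1S, 0.53 for OPM2 and 0.28 for RPMI-8226. Of 17 mitochondrial aminoacyl-tRNA synthetases 10 fell and none rose, with MARS2 at -0.59 ± 0.05 and NARS2 at -0.47 ± 0.05.

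Of 23 genes of ribosome assembly and ribosomal RNA modification, 17 fell and 2 rose on average. RBFA, a maturation factor of the small subunit, fell by 0.70 ± 0.07 on average and by 1.54 in H929, and MALSU1, of the large subunit, by 0.60 ± 0.07. YBEY and NOA1 rose, by 0.29 ± 0.07 and 0.09 ± 0.04, and both rose in MM1S, by 0.64 and 0.45, while NOA1 fell in RPMI-8226 by 0.21. Of 14 genes of mitochondrial DNA transcription and RNA processing, 13 fell and none rose. Among them were TFAM, which packages mitochondrial DNA and helps start its transcription, at -0.55 ± 0.04, and LRPPRC at -0.47 ± 0.04. Both were called in all 4 lines. Of 6 partners of proteolysis and membrane insertion 4 fell and 2 rose, with the protease LONP1 at -0.59 ± 0.05 and the insertase OXA1L, which holds the ribosome at the inner membrane, at 0.10 ± 0.04. OXA1L rose in MM1S by 0.50 (adjusted p = 2.66e-05) and was near 0 in the other lines.

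Of 9 regulators of nuclear mitochondrial genes 7 fell on average and none rose. Besides MYC they included PPRC1, a coactivator of NRF1, at -0.63 ± 0.04, and GABPB1, a subunit of the ETS-family factor GABP, at -0.41 ± 0.05, called lower in all 4 lines. PPRC1 fell by 0.99 in H929, 0.80 in OPM2 and 0.52 in RPMI-8226 and was not called in MM1S at -0.21 (adjusted p = 0.0882). NRF1 itself fell by 0.31 ± 0.05, YY1 by 0.10 ± 0.04, and GABPA was not called at -0.09 ± 0.05 (adjusted p = 0.175). PPARGC1A, another coactivator, fell in MM1S by 1.26 ± 0.23 (adjusted p = 8.68e-05) and in OPM2 by 0.68 ± 0.19 (adjusted p = 0.00416), and was not called in H929 at -0.21 ± 0.21. It had no count in any RPMI-8226 library, so the average could not be estimated. PPARGC1B, of the same list, rose in MM1S by 0.38 ± 0.12 (adjusted p = 0.0164) and fell in H929 by 0.78 ± 0.10 and in OPM2 by 0.88 ± 0.11. In MM1S, 4 of the 9 regulators fell and 2, MYC and PPARGC1B, rose, where 15.2% of all tested genes were called lower and 19.4% higher.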

How the data were processed

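RNA of 23 libraries was extracted with RNeasy Plus and made into libraries with a TruSeq RNA kit, per the labels' protocols. The authors deposited raw read counts per gene and log2 RPKM values, and the submitters' processing notes name Subread, featureCounts, limma and GRCh38, without the role of each. No source used here gives the strand setting or versions. The members, gene lists and tests were chosen with earlier results of these data known.

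Counts of 16468 genes (edgeR's filterByExpr by group) were scaled by TMM (factors 0.914 to 1.08) and fitted with 8 group means in edgeR 4.0.16 (quasi-likelihood, robust; R 4.3.3), with Benjamini-Hochberg adjustment within each contrast and a threshold of 0.05. The SE is the absolute log2 fold change over the square root of F. The script was tested on simulated data. These had the same dispersion (spread between replicates) of 0.02 for every gene. Among 16132 genes, 100 were changed by each fold. A simulated 1.5-fold change was found for 24% of the changed genes with the MM1S contrast, and for 33% to 45% with the contrasts of the other lines. For a 2-fold change these shares were 79% and 91% to 93%. In that simulation changes of equal size were thus not found equally often in all lines, which limits a comparison of counts of calls between lines. The shares hold for the simulated spread and do not give how often real changes of that size were called. CPM values use TMM-scaled library sizes, except markers, which use the unscaled library total. Of the 28395 genes, 490 had no symbol. Library totals of 6907390 to 28486960 counts limit the precision of genes with low counts. The count table had no gene length, so levels between genes come from the deposited log2 RPKM values and not, as planned, from RPKM computed from the counts.

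Named genes were the 10 largest falls and 5 largest rises on average among called members, the 3 largest of each in every line, the 8 smallest p-values for a difference between lines, the 3 smallest for each line against the others, the 5 smallest between EV-guide groups, the 5 highest and 5 lowest levels, members named for their role, and up to 3 called genes of each related list. YY1, GABPA, NRF1, PPARGC1A, PPARGC1B, OXA1L, YBEY, NOA1, MRPL41, the overlapping genes and members named only to spell out a count were named after their values were seen.

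Replicate pairs of a group (22) differed by more than sampling noise, with a chi-square per gene of 3.59 to 26.6, so no library was taken as a duplicate. Same-numbered libraries of the 2 guides deviated together in H929 (r 0.148 to 0.291), OPM2 (0.335 to 0.383) and RPMI-8226 (0.173 to 0.232). In MM1S the r was 0.0501 and 0.079. With only 2 EV-guide libraries there, their deviations from the group mean mirror each other, so the check cannot decide whether the numbers pair the MM1S libraries. The labels do not say that the numbers pair libraries. The main fit has no replicate term, so its SE and p-values take no account of such pairing, and replicate blocks were run as alternatives. Alternatives were relative log expression scaling, no filter, each line alone, limma 3.58.1 on log2 RPKM, replicate blocks, DESeq2 1.42.0, leaving out each library and, added after seeing the data, a filter of 10 counts in every library.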

Additional observations from a re-analysis of the deposited data

Results flagged for a closer look

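The guide effect differed between the 4 lines for 50 of the 78 genes (edgeR F test, adjusted p under 0.05), beside 48% of all tested genes. Among the genes named, the adjusted p of that test was 9.46e-08 for MRPS27, 2.47e-07 for MRPL14, 1.87e-06 for MRPS2, 2.79e-05 for MRPS30, 4.53e-05 for MRPS12, 8.24e-05 for MRPL10 and 9.18e-05 for MRPS18B. It was 0.000229 for MRPS26, 0.000344 for MRPL18, 0.000351 for MRPL12, 0.000364 for MRPL17, 0.000557 for MRPL3 and 0.000961 for MRPS25. It was 0.00103 for MRPS6, 0.00139 for MRPL53, 0.00156 for MRPL37, 0.00168 for MRPL57, 0.00375 for MRPL28, 0.00447 for MRPL45 and 0.00505 for MRPS34. It was 0.0058 for MRPL4, 0.00874 for MRPS18A, 0.00918 for MRPL1, 0.0177 for MRPS23 and 0.0451 for MRPL21. Groups of 3 libraries or fewer were not searched for outlying libraries.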

How the results depend on the processing

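No direction reversed among 34 named members under the alternatives run, in any line or on average, where a gene was called in either fit. Other genes and the contrasts of a line against the others were not checked for a reversal. The counts of genes that fell kept within 1.5 times in H929, OPM2, RPMI-8226 and on average. In MM1S, 14 fell, against 23 with each line fitted alone and 26 with the within-line replicate block, and 5 rose, against 9 with the added filter. In OPM2, 2 rose, against 1 without a filter or with the line alone and 4 with the added filter, and on average 1 rose, against 2 with the added filter. Against the other lines, the 1 higher gene in H929 became 2 with relative log expression, both replicate blocks, DESeq2 and the added filter, and 0 without a filter. The 5 lower genes in OPM2 became 2 without a filter, 9 with the block shared by the lines and 8 with the block within each line, and the 2 higher genes became 4 with the block within each line. The 4 lower genes in RPMI-8226 became 7 with limma on log2 RPKM, the shared block, DESeq2 and the added filter. The 7 genes lower in all 4 lines became 14 with each line alone, 15 with the shared block and 20 with the block within each line. The cause was not tested. Beyond the calls given in the text, the block within each line added calls for MRPL47 (-0.27, adjusted p = 0.0283), MRPL21 (-0.38, 0.0234) and MRPS23 (-0.34, 0.00774) in MM1S. Whether the numbers pair the MM1S libraries is not known. The same block added calls for MRPS31 in H929 (-0.25, 0.0303) and OPM2 (-0.26, 0.0215), and it changed no other call of a named gene.

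Leaving out each library in turn gave 2 to 8 higher genes in MM1S, 1 to 2 in OPM2, and 4 (without MM1S EV-guide replicate 3) to 10 genes lower in all 4 lines. Against the other lines it gave 19 to 42 lower and 0 to 2 higher in H929, 0 to 1 lower and 19 to 40 higher in MM1S, 3 to 6 lower and 1 to 3 higher in OPM2, and 4 to 11 lower and 2 to 10 higher in RPMI-8226. Of 122 calls of named genes, 97 held under every alternative. Genes with few counts, such as MRPS24 and MRPS18C, had the largest SE. The all-gene median in H929 was 0.10 with TMM, 0.14 with relative log expression and -0.07 on log2 RPKM, and the median of the 78 genes there was -0.55, -0.52 and -0.50. The rule without the count minimum gave the same 78 genes.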
